A study of Trametes versicolor with 12 samples.

Results

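Transcript levels of 5 lignin peroxidase genes, LiP1, LiP2, LiP3, LiP10 and LiP12, were examined in cultured mycelium of Trametes versicolor, a fungus that causes white rot of wood. They were taken from 14296 gene models by their JGI protein numbers, which are JGI.43576 for LiP1, JGI.43578 for LiP2, JGI.133918 for LiP3, JGI.134657 for LiP10 and JGI.114944 for LiP12, where the prefix is added here and the files give the number alone. The symbols came from the RefSeq gene table, whose locus tags join the prefix TRAVEDRAFT to the same numbers. That table lists 5 further genes under a LiP symbol. The series holds 12 RNA sequencing libraries, 3 from separate cultures in each of 4 groups: strain BRFM1218 after 2 weeks, BRFM1218 after 4 weeks, strain 1956-1252 after 2 weeks and 1956-1252 after 4 weeks. All cultures grew on agar with 4% malt, a medium to which the labels add no wood or lignin, and no other treatment is named. Each strain stands for itself only, since each side of the strain comparison is 1 strain. In bulk mycelium, less RNA per hypha and fewer hyphae that express a gene cannot be told apart.

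Lignin peroxidases are secreted haem enzymes of the class II peroxidase family, which also holds the manganese peroxidases and the versatile peroxidases. The haem is oxidised by hydrogen peroxide, and the enzyme then takes electrons from non-phenolic aromatic units of lignin, directly at an exposed tryptophan or through veratryl alcohol as a mediator. Manganese peroxidases instead oxidise manganese(II), whose chelated manganese(III) product attacks phenolic units, and versatile peroxidases combine both activities. White-rot fungi typically carry these genes as families of similar copies, so reads that align to several copies are a concern for each of them. The labels give no function for the single copies, and the symbol is all that distinguishes them here.

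Libraries held 31763162 to 74647672 reads assigned to genes, and the 4 shallowest were all from BRFM1218. The reference strain used by the authors for alignment is not given in the sources used here, and unequal alignment of the strains was not tested. Levels below are counts per 1000000 reads (CPM) after TMM scaling (trimmed means of M values), where 3 reads correspond to 0.0341 to 0.114 CPM. Levels of different genes are compared only in the authors' RPKM, which are reads scaled by model length and by the library's read total, without TMM.

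All 5 genes were read in every library, but thinly. LiP1 had 144, 169 and 187 reads in the BRFM1218 libraries at 2 weeks and 506, 738 and 343 at 4 weeks. In 1956-1252 it had 1212, 1408 and 973 reads at 2 weeks and 1027, 1192 and 1294 at 4 weeks. LiP1 was thus the most deeply read of the 5, with 9193 reads over the 12 libraries. LiP2 had 99, 118 and 170 reads in BRFM1218 at 2 weeks and 619, 521 and 160 at 4 weeks. In 1956-1252 it had 426, 520 and 395 reads at 2 weeks and 448, 507 and 458 at 4 weeks. The third BRFM1218 library at 4 weeks, the shallowest of its group with 34004441 reads, stood well below the other two for LiP2 in CPM as well as in reads.

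LiP10 had 104, 106 and 132 reads in BRFM1218 at 2 weeks and 409, 499 and 165 at 4 weeks. In 1956-1252 it had 458, 533 and 351 reads at 2 weeks and 394, 437 and 514 at 4 weeks. The same shallow BRFM1218 library was again the lowest at 4 weeks. LiP3 had 36, 80 and 61 reads in BRFM1218 at 2 weeks and 118, 188 and 80 at 4 weeks. In 1956-1252 it had 366, 464 and 271 reads at 2 weeks and 210, 284 and 296 at 4 weeks. LiP3 and LiP12 were the thinnest, with 2454 and 1932 reads over all libraries. LiP12 had 44, 55 and 35 reads in BRFM1218 at 2 weeks and 169, 198 and 64 at 4 weeks. In 1956-1252 it had 202, 278 and 143 reads at 2 weeks and 223, 237 and 284 at 4 weeks.

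**Figure D1:**
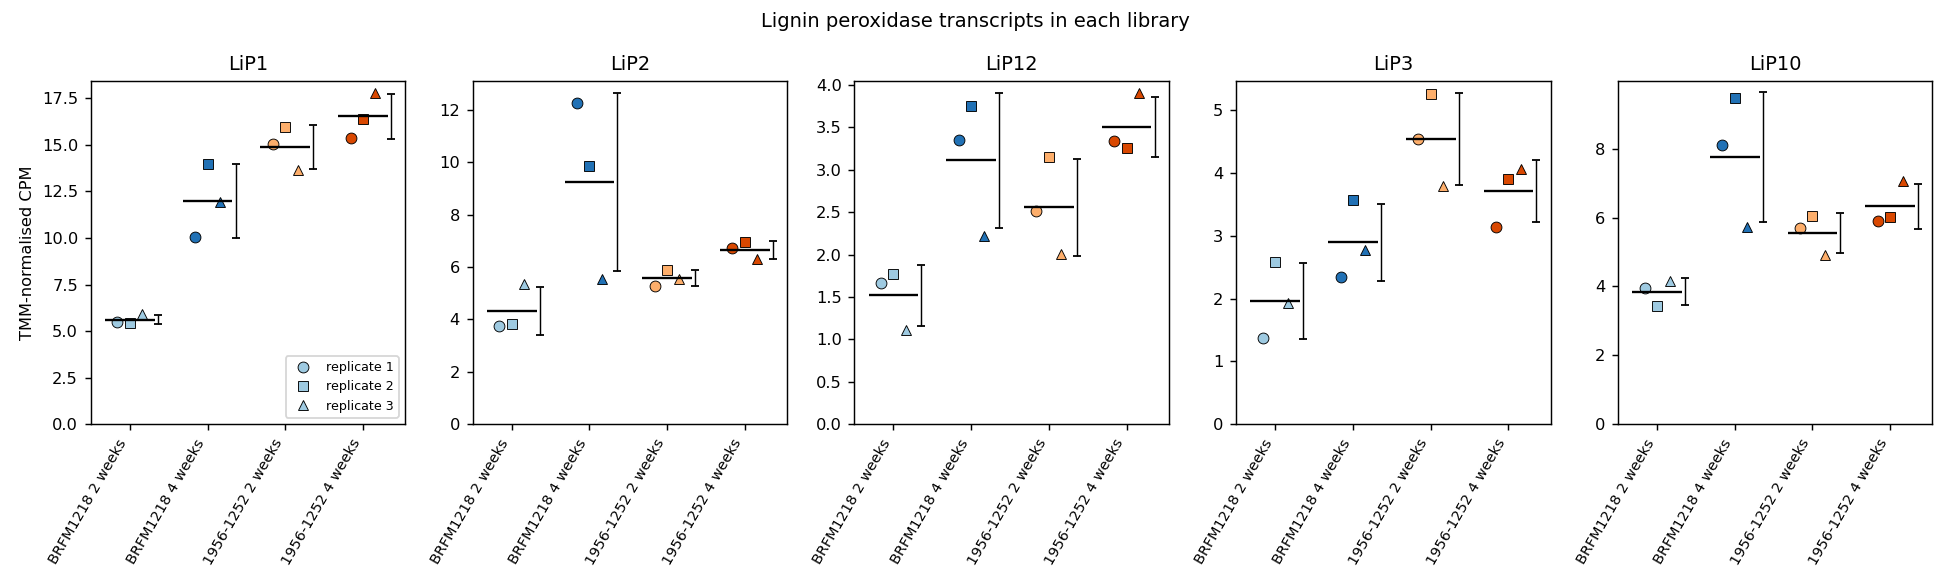
TMM-normalised CPM of each gene (vertical axis, starting at 0) in the 12 libraries, by group; points are libraries, with 1 symbol per replicate number, horizontal lines are group means and bars are ± 1 SD (n = 3). LiP1 lies between 5.46 and 5.91 CPM in BRFM1218 at 2 weeks and above that in all other libraries, while LiP2 spans 5.56 to 12.3 CPM in BRFM1218 at 4 weeks.

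Reads that did not align uniquely were few for LiP1 and LiP2 and most frequent for LiP12. Of all reads over the 12 libraries, the non-unique share was 0.25% for LiP1 (23 reads), 0.585% for LiP2 (26 reads), 1.43% for LiP3 (35 reads), 1.66% for LiP10 (68 reads) and 4.45% for LiP12 (86 reads). Among 12553 tested genes with at least 100 reads, 39.4% had no such read and the median share was 0.00299%, so all 5 genes lay above the 90th percentile, which was 0.22%. For LiP12 the share was 1.49% in BRFM1218 at 2 weeks, 6.96% in BRFM1218 at 4 weeks, 4.98% in 1956-1252 at 2 weeks and 3.09% in 1956-1252 at 4 weeks. In the first BRFM1218 library at 4 weeks, 20 of its 169 reads were non-unique. How the authors divided such reads among gene copies is not given in the sources used here. Every call for the 5 genes given below was also made with unique reads alone, and the age change of LiP12 in BRFM1218 was then 0.98 on the log2 scale (adjusted p = 0.00468 in edgeR).

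The spread between replicate libraries was mostly wider than counting error. Counting alone would give LiP2 in BRFM1218 at 4 weeks a coefficient of variation (CV) of 5.71%, and the observed CV of its CPM was 36.8%. For LiP10 in the same group the observed CV was 24.3% against 5.92% from counting. At the other end, LiP1 in BRFM1218 at 2 weeks had an observed CV of 4.58% against 7.79% from counting, and LiP2 in 1956-1252 had 5.49% against 4.76% at 2 weeks and 5.08% against 4.61% at 4 weeks. Tagwise biological coefficients of variation fitted by edgeR were 10.1% for LiP1, 14% for LiP10, 17.5% for LiP3, 18.2% for LiP2 and 18.3% for LiP12, against a common value of 8.27% for all tested genes.

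**Figure D2:**
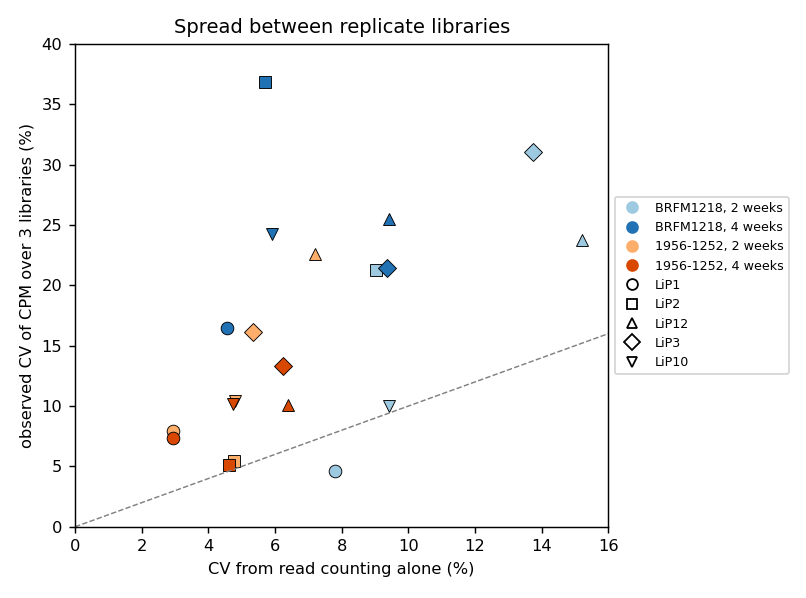
Observed CV of CPM over the 3 libraries of a group (vertical axis, %) against the CV that read counting alone would give (horizontal axis, %), for 5 genes (symbols) in 4 groups (colours); the dashed line marks equality. LiP2 in BRFM1218 at 4 weeks lies highest, at 36.8% against 5.71%.

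Per unit length, LiP1 was the highest of the 5 genes in each group mean and LiP12 or LiP3 the lowest. Mean RPKM of LiP1 was 4.2 ± 0.161 (SD, n = 3 here and below) in BRFM1218 at 2 weeks, 9.07 ± 1.48 at 4 weeks, 15.9 ± 1.21 in 1956-1252 at 2 weeks and 18.3 ± 1.37 at 4 weeks. These values placed LiP1 between the 41.2 and 55.4 percentiles of all gene models in the 4 groups. LiP12, the lowest in 3 of the 4 groups, lay between the 24.4 and 32.4 percentiles, with means of 1.12 ± 0.274, 2.32 ± 0.572, 2.70 ± 0.603 and 3.83 ± 0.381 RPKM in the same order. The gene models are nearly equal in length, at 1104 bases for LiP1 and LiP2, 1095 for LiP3 and LiP10 and 1119 for LiP12.

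LiP2 and LiP10 could not be ordered. Mean RPKM of LiP2 was 3.23 ± 0.660, 6.98 ± 2.52, 5.97 ± 0.331 and 7.39 ± 0.397 in the order above, and that of LiP10 was 2.90 ± 0.272, 5.92 ± 1.39, 5.99 ± 0.604 and 7.08 ± 0.720. Their ranges overlapped in all 4 groups. Both lay above LiP3 without overlap in 3 of the 4 groups. In 1956-1252 at 2 weeks the lowest libraries of LiP2 (5.65 RPKM) and LiP10 (5.33 RPKM) were under the highest of LiP3 (5.68 RPKM). Within each single library, however, LiP2 and LiP10 were both above LiP3, in this group and in the others. LiP3, at 1.48 ± 0.465, 2.21 ± 0.466, 4.90 ± 0.779 and 4.15 ± 0.564 RPKM, overlapped LiP12 in every group except 1956-1252 at 2 weeks, where its lowest library (4.12 RPKM) was above the highest of LiP12 (3.33 RPKM). LiP1 exceeded LiP2 in 11 of 12 libraries. The exception was the first BRFM1218 library at 4 weeks, with 7.56 RPKM for LiP1 and 9.25 for LiP2.

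LiP1 exceeded LiP2 by more in 1956-1252 than in BRFM1218. Within each library, the ratio of their RPKM does not depend on library scaling. It was 1.45, 1.43 and 1.10 in BRFM1218 at 2 weeks and 0.817, 1.42 and 2.14 at 4 weeks. In 1956-1252 it was 2.85, 2.71 and 2.46 at 2 weeks and 2.29, 2.35 and 2.83 at 4 weeks. All 1956-1252 libraries were above all BRFM1218 libraries, and the ages of each strain overlapped. An exact two-sided permutation test of the log2 ratio between strains gave p = 0.1 at each age, the smallest that 3 against 3 libraries allow. LiP1 made up 45.0 ± 0.920% of the summed RPKM of the 5 genes in 1956-1252 at 2 weeks and 44.9 ± 0.436% at 4 weeks, against 32.5 ± 1.01% and 34.8 ± 7.22% in BRFM1218.

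**Figure D3:**
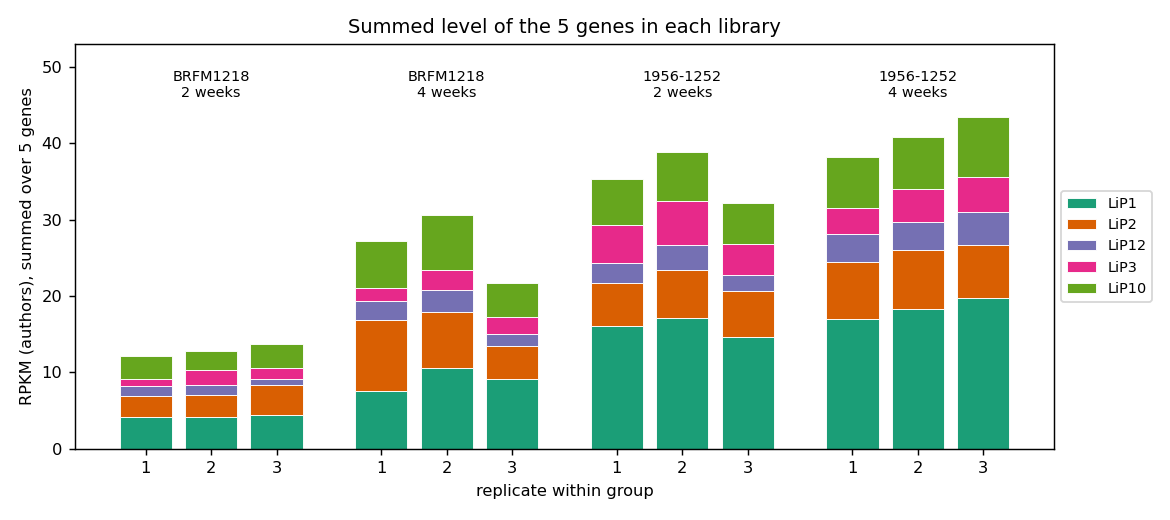
RPKM as deposited by the authors, stacked over the 5 genes (vertical axis, starting at 0), for each library within its group. Sums run from 12.2 to 13.8 in BRFM1218 at 2 weeks, 21.7 to 30.6 in BRFM1218 at 4 weeks, 32.2 to 38.9 in 1956-1252 at 2 weeks and 38.1 to 43.5 in 1956-1252 at 4 weeks. RPKM is scaled by the read total alone, so the gap between strains in these sums depends on the scaling. With library size only, the median log2 strain difference of all tested genes was 0.60 at 2 weeks and 0.66 at 4 weeks. With TMM it was 0.09 and 0.11.

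In BRFM1218, LiP1, LiP2, LiP10 and LiP12 roughly doubled between 2 and 4 weeks. LiP1 rose from 5.61 ± 0.257 to 12 ± 1.98 CPM, a log2 fold change of 1.09 (SE 0.13, 95% interval 0.81 to 1.38), with no overlap between the ages. LiP2 rose from 4.32 ± 0.916 to 9.24 ± 3.4 CPM (1.11, SE 0.23, interval 0.63 to 1.59). Its lowest library at 4 weeks (5.56 CPM) was barely above its highest at 2 weeks (5.37 CPM). LiP10 rose from 3.85 ± 0.384 to 7.77 ± 1.89 CPM (1.02, SE 0.19, interval 0.63 to 1.42) and LiP12 from 1.52 ± 0.361 to 3.11 ± 0.793 CPM (1.06, SE 0.26, interval 0.50 to 1.61), both without overlap. LiP3 was at 1.96 ± 0.609 and 2.90 ± 0.620 CPM, its libraries overlapped, and its log2 fold change of 0.56 (SE 0.25, interval 0.03 to 1.09) did not pass.

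Adjusted over 12648 tested genes, edgeR's quasi-likelihood test gave adjusted p = 1.97e-06 for LiP1, 0.000462 for LiP2, 0.000148 for LiP10, 0.00235 for LiP12 and 0.0651 for LiP3. The 4 genes called higher, of 5, compare with 33.0% of all tested genes called higher with age in this strain. The median log2 fold change of the 5 was 1.06, and that of all tested genes was 0.06. LiP3 passed without the second BRFM1218 library at 2 weeks (0.81, adjusted p = 0.0184 in edgeR) and without the first at 4 weeks (0.70, adjusted p = 0.031). The calls of the other 4 genes held in all 21 alternatives tried.

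In 1956-1252 none of the 5 genes passed the test for age. LiP1 was at 14.9 ± 1.18 CPM at 2 weeks and 16.5 ± 1.21 CPM at 4 weeks (log2 fold change 0.15, SE 0.12), and its libraries overlapped. The 95% interval of that change, -0.10 to 0.40, lay wholly below the interval of 0.81 to 1.38 in BRFM1218. LiP2 was at 5.58 ± 0.306 and 6.66 ± 0.339 CPM (0.26, SE 0.21, interval -0.19 to 0.71), with all 4-week libraries above all 2-week libraries. LiP10 was at 5.55 ± 0.577 and 6.33 ± 0.646 CPM (0.19, SE 0.17, interval -0.18 to 0.55) and overlapped. LiP3, at 4.54 ± 0.734 and 3.71 ± 0.493 CPM, overlapped and had an estimate below 0 (-0.29, SE 0.22, interval -0.76 to 0.17). LiP12, at 2.56 ± 0.577 and 3.50 ± 0.353 CPM, had the highest estimate (0.45, SE 0.23, interval -0.04 to 0.94), and its libraries were apart.

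The count of 0 calls by edgeR compares with 48.6% of all tested genes called in either direction in this strain. At an unadjusted p under 0.05 it was also 0, and DESeq2 gave 0 by either count. The adjusted p in edgeR ranged from 0.124 for LiP12 to 0.399 for LiP10. When only the 1956-1252 libraries were fitted, LiP2 (0.25, adjusted p = 0.031) and LiP12 (0.44, adjusted p = 0.0291) passed.

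The age change itself was more positive in BRFM1218 for LiP1, LiP2, LiP3 and LiP10. The interaction subtracts the log2 age change of BRFM1218 from that of 1956-1252. It came to -0.94 for LiP1 (SE 0.18, adjusted p = 0.000276 in edgeR), -0.84 for LiP10 (SE 0.25, adjusted p = 0.0106), -0.85 for LiP2 (SE 0.31, adjusted p = 0.0297) and -0.85 for LiP3 (SE 0.33, adjusted p = 0.0413). For LiP12 it was -0.60 (SE 0.35, interval -1.35 to 0.14, adjusted p = 0.164) and did not pass. The 4 calls in this direction compare with 27.2% of all tested genes, and the median over the 5 genes was -0.85 against -0.03 over all tested genes.

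The calls for LiP1 and LiP10 held in all 20 alternatives, and those for LiP2 and LiP3 did not. LiP2 lost its call without the first (-0.78, adjusted p = 0.0655 in edgeR) or the second (-0.79, adjusted p = 0.0656) BRFM1218 library at 2 weeks, and without the first at 4 weeks (-0.62, adjusted p = 0.0826). It also lost it without the second 1956-1252 library at 2 weeks (-0.82, adjusted p = 0.0586), or the first (-0.82, adjusted p = 0.0571) or the third at 4 weeks (-0.78, adjusted p = 0.07). LiP3 lost its call without the first (-0.67, adjusted p = 0.0989) or the third (-0.84, adjusted p = 0.0664) BRFM1218 library at 2 weeks, without the second at 4 weeks (-0.67, adjusted p = 0.0976), without the first (-0.86, adjusted p = 0.0681) or second (-0.74, adjusted p = 0.107) 1956-1252 library at 2 weeks, and without the first (-0.71, adjusted p = 0.117), second (-0.85, adjusted p = 0.0695) or the third (-0.89, adjusted p = 0.0585) at 4 weeks. LiP12 passed without the third BRFM1218 library at 4 weeks (-0.80, adjusted p = 0.0463).

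**Figure D4:**
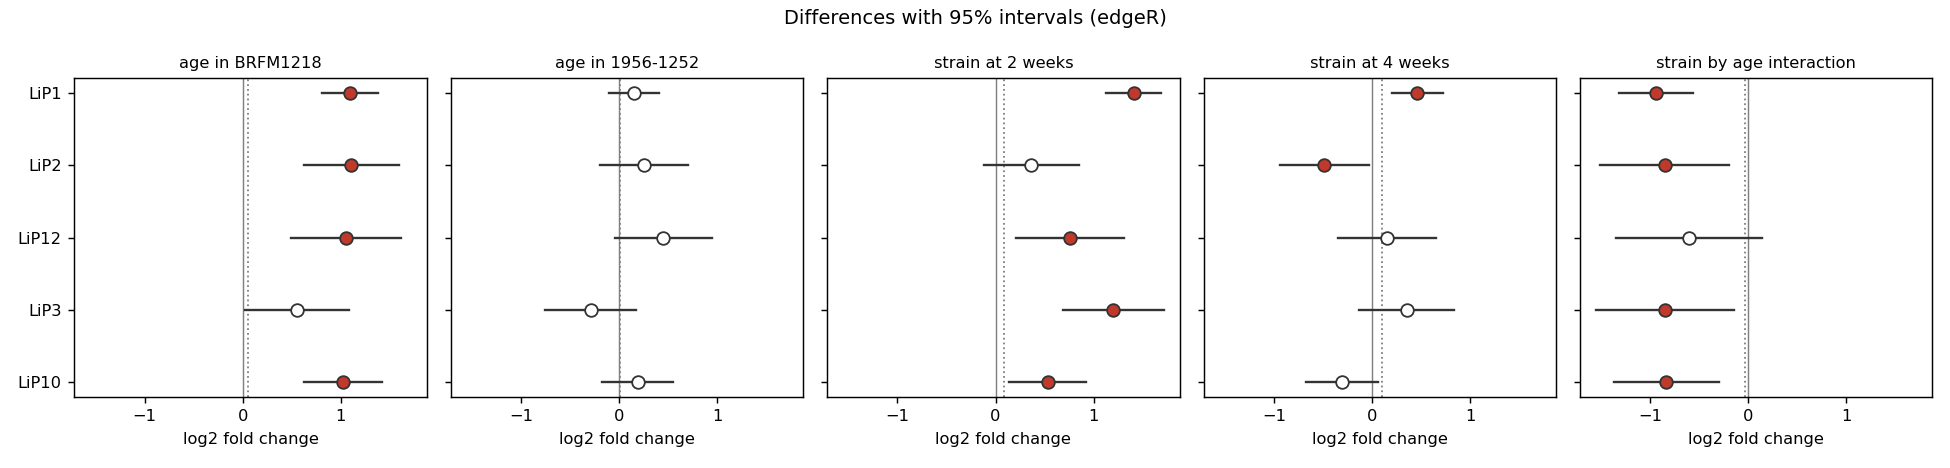
Log2 fold changes (horizontal axis) of the 5 genes in the 5 comparisons, with 95% intervals from edgeR; filled points passed at an adjusted p under 0.05, the solid line marks 0 and the dotted line the median of all tested genes. In the age panels the filled points are LiP1, LiP2, LiP12 and LiP10 in BRFM1218, and no point is filled in 1956-1252.

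At 2 weeks LiP1, LiP3, LiP10 and LiP12 were higher in 1956-1252 than in BRFM1218. LiP1 was at 14.9 ± 1.18 against 5.61 ± 0.257 CPM, a log2 difference of 1.41 (SE 0.13, adjusted p = 2.08e-08 in edgeR), and LiP3 at 4.54 ± 0.734 against 1.96 ± 0.609 CPM (1.2, SE 0.24, adjusted p = 0.000191). Neither overlapped between strains. LiP12 (0.76, SE 0.26, adjusted p = 0.0125) and LiP10 (0.53, SE 0.19, adjusted p = 0.0137) differed by less, also without overlap. LiP2 did not pass, at 5.58 ± 0.306 against 4.32 ± 0.916 CPM (0.37, SE 0.23, interval -0.11 to 0.85, adjusted p = 0.142).

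The 4 genes called higher compare with 44.4% of all tested genes, and the median of the 5 was 0.76 against 0.09. LiP1 was the only one of the 4 whose call held in all 21 alternatives. After each library's trend with expression level had been taken out, LiP3 no longer passed (0.38, adjusted p = 0.149), and LiP10 (-0.02, adjusted p = 0.913), LiP12 (-0.16, adjusted p = 0.574) and LiP2 (-0.15, adjusted p = 0.535) had estimates of the other sign. LiP12 also lost its call without the third BRFM1218 library (0.58, adjusted p = 0.0642) or the second 1956-1252 library (0.59, adjusted p = 0.0684). LiP2 passed without the third BRFM1218 library at 2 weeks (0.57, adjusted p = 0.0484) and without the third at 4 weeks (0.38, adjusted p = 0.03), with upper quartile factors (0.67), with library size only (0.88) and with only the 2-week libraries (0.37, adjusted p = 0.0486).

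At 4 weeks the estimated strain differences of LiP1, LiP3, LiP10 and LiP12 were smaller in size than at 2 weeks, and those of LiP2 and LiP10 had the other sign. LiP1 was still higher in 1956-1252, at 16.5 ± 1.21 against 12 ± 1.98 CPM (0.46, SE 0.12, adjusted p = 0.00204 in edgeR), without overlap. LiP2 was lower, at 6.66 ± 0.339 against 9.24 ± 3.4 CPM (-0.49, SE 0.21, adjusted p = 0.0434), with the third BRFM1218 library (5.56 CPM) below all 3 libraries of 1956-1252. The estimates for LiP3 (0.35, interval -0.13 to 0.84), LiP12 (0.15, interval -0.35 to 0.66) and LiP10 (-0.31, interval -0.67 to 0.06) did not pass. Higher calls covered 44.9% and lower calls 40.6% of all tested genes, so 1 call in each direction among the 5 is below that background. The test of the change from 2 to 4 weeks is the interaction given above, which LiP12 did not pass (adjusted p = 0.164).

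The call for LiP1 at 4 weeks held in all 21 alternatives and that for LiP2 was lost in 12. In RPKM the group means of LiP2 were in the other order, 7.39 in 1956-1252 and 6.98 in BRFM1218, because RPKM is scaled by the read total alone. With library size only in edgeR the difference of LiP2 was 0.07 (adjusted p = 0.763), that of LiP10 was 0.25 (adjusted p = 0.181), and LiP3 (0.91) and LiP12 (0.71) were called higher in 1956-1252. The median of all tested genes with library size only was 0.66 at 4 weeks, against 0.11 with TMM. With the expression trend taken out, LiP10 (-0.82) and LiP12 (-0.70) were instead called lower. The call for LiP2 also ended without the first (-0.24, adjusted p = 0.296) or second (-0.45, adjusted p = 0.0867) BRFM1218 library at 4 weeks, and without any single 1956-1252 library, where adjusted p ran from 0.0512 to 0.101. Without the third BRFM1218 library at 4 weeks LiP10 was called lower in 1956-1252 (-0.47, adjusted p = 0.00823), and the estimate of LiP12 was -0.02 (adjusted p = 0.929). Without the second, LiP3 was called higher (0.55, adjusted p = 0.0457).

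The other class II peroxidase genes give the setting for these values. Of the 5 other LiP genes, 4 rose with age in BRFM1218 and 0 fell, with a median log2 fold change of 0.87. LiP9 rose from 0.706 ± 0.0888 to 3.07 ± 0.670 CPM and LiP4 from 1.15 ± 0.362 to 3.15 ± 0.488 CPM, while LiP8, at 0.816 ± 0.338 and 1.06 ± 0.319 CPM, did not pass (adjusted p = 0.258 in edgeR). Of 13 manganese peroxidase genes 4 rose and 2 fell in BRFM1218 (median 0.27), and of 3 versatile peroxidase genes 1 rose and 2 fell. In 1956-1252, of the other LiP genes 0 were called in edgeR (median -0.01, with 1 at an unadjusted p under 0.05) and 0 in DESeq2, of the manganese peroxidases 4 rose and 0 fell (median 0.33), and of the versatile peroxidases 2 rose and 0 fell. The interaction was called below 0 in 4 of the 5 other LiP genes, in 2 of the 13 manganese peroxidases, with 3 above 0, and in 1 of the 3 versatile peroxidases, with 2 above 0. For comparison, of all 12648 tested genes 4175 rose and 3468 fell with age in BRFM1218. In 1956-1252, 3176 rose and 2965 fell, and the interaction was called below 0 in 3446 and above 0 in 3241. Whether the manganese or versatile peroxidases depart from these shares was not tested. Between the strains at 2 weeks, 4 of the 5 other LiP genes were called higher in 1956-1252 and 0 lower (median 1.84, against 0.76 for the 5 genes). At 4 weeks 3 were higher and 1 lower (median 0.44, against 0.15). Of all tested genes, 44.4% were called higher at 2 weeks, and 44.9% higher and 40.6% lower at 4 weeks. The other LiP genes were not examined with the expression trend removed.

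The 5 genes supplied 67.9 ± 2.91% of the RPKM summed over all 10 LiP genes in BRFM1218 at 2 weeks and 67.4 ± 2.55% at 4 weeks. In 1956-1252 the share was 54.5 ± 0.0268% at 2 weeks and 58.7 ± 0.872% at 4 weeks, and no library of one strain overlapped the other. LiP5 alone reached 13.2 ± 0.967 RPKM in 1956-1252 at 2 weeks, against 1.71 ± 0.883 in BRFM1218, both without TMM. After TMM scaling LiP5 was at 12.4 ± 0.936 against 2.31 ± 1.21 CPM. That is a log2 difference of 2.41 (SE 0.24, adjusted p = 5.21e-08 in edgeR). Of the RPKM of all 26 class II peroxidase genes, the 5 genes made up 7.57 ± 0.305% in BRFM1218 at 2 weeks, 14.9 ± 1.42% at 4 weeks, and 16.1 ± 0.558% and 14.4 ± 0.325% in 1956-1252 at 2 and 4 weeks.

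**Figure D5:**
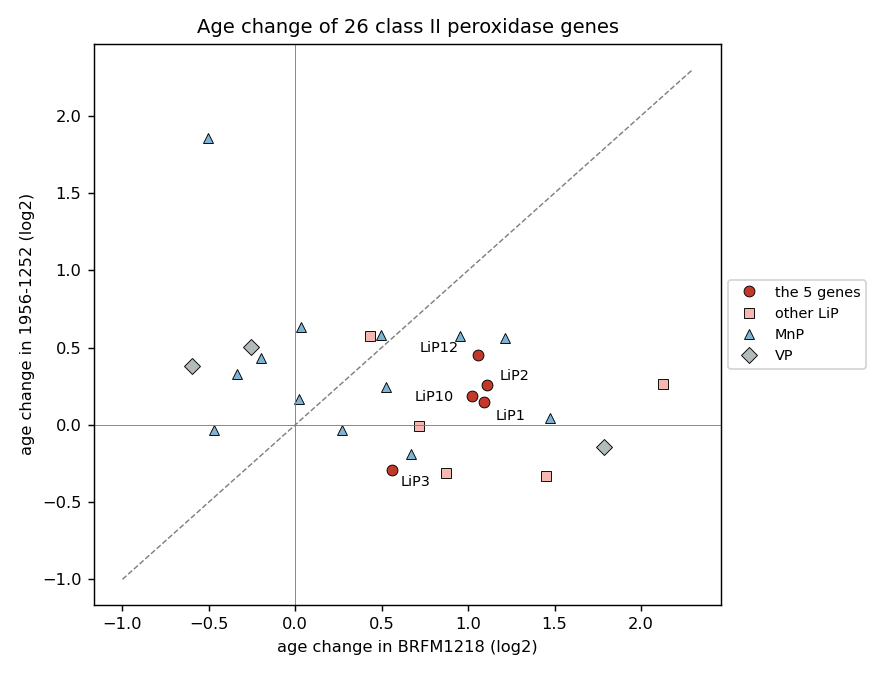
Log2 fold change with age in 1956-1252 (vertical axis) against that in BRFM1218 (horizontal axis) for 26 class II peroxidase genes, by kind; the dashed line marks equal change. The 5 genes lie below the line, at 0.56 to 1.11 in BRFM1218 and -0.29 to 0.45 in 1956-1252.

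By their order in the RefSeq table, LiP1, LiP2, LiP12 and the manganese peroxidase gene MnP2s lie in 1 run, with TRAVEDRAFT_62859 between LiP1 and LiP2 and TRAVEDRAFT_26611 between LiP2 and LiP12. LiP3 and LiP10 lie elsewhere. MnP2s rose with age in BRFM1218 (log2 fold change 1.47, adjusted p = 1.35e-05 in edgeR) and had an interaction of -1.43 (adjusted p = 0.000458), as LiP1 and LiP2 did in direction. TRAVEDRAFT_62859, within the run, fell with age in BRFM1218 (-0.42, adjusted p = 0.000237). TRAVEDRAFT_26610, on the other side of LiP1, did not pass for age in BRFM1218 (0.25, adjusted p = 0.459 in edgeR). TRAVEDRAFT_26611, whose locus overlaps that of LiP12, was at 0.324 and 0.630 RPKM in BRFM1218 and 1.36 and 1.38 RPKM in 1956-1252 at 2 and 4 weeks, and its age change in BRFM1218 did not pass (1.0, adjusted p = 0.191). The use of strand in counting is not given in the sources used here, so reads over the overlap cannot be assigned with certainty. Next to LiP10, TRAVEDRAFT_74981 fell in BRFM1218 (-0.33, adjusted p = 0.00215) and rose in 1956-1252 (0.37, adjusted p = 0.000746), and TRAVEDRAFT_53052 did not pass in BRFM1218 (0.26, adjusted p = 0.195). Directly beside LiP3, TRAVEDRAFT_23623 and TRAVEDRAFT_60751 were barely read, at no more than 0.041 RPKM in any group mean. Further out before LiP3 in that order, TRAVEDRAFT_39960 rose in BRFM1218 (0.92, adjusted p = 0.000601 in edgeR) and TRAVEDRAFT_133378 fell (-0.90, adjusted p = 9.08e-07). Further out after LiP3, TRAVEDRAFT_52326 (0.25, adjusted p = 0.369) and TRAVEDRAFT_23625 (0.41, adjusted p = 0.412) did not pass there.

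Among themselves LiP2 and LiP10 had the most similar profiles. Likeness was measured as the root-mean-square difference of the 4 group means of log2 CPM, each gene centred on its own mean, so a lower value is closer. It was 0.07 between LiP2 and LiP10, whose levels also could not be ordered, and 0.20 to 0.47 between all other pairs of the 5. The closest genes with a symbol were MnP5s (0.22) and MnP13 (0.23) for LiP1, LiP10 (0.07) and MnP8s (0.15) for LiP2, MnP13 (0.10) and LiP10 (0.20) for LiP12, LiP6 (0.17) and MnP5s (0.18) for LiP3, and LiP2 (0.07) and LiP12 (0.20) for LiP10. Genes without a symbol were closer in each case. Among all genes compared, the first named ranked 196 for LiP1, 14 for LiP2, 20 for LiP12, 212 for LiP3 and 10 for LiP10. Closest of all 11623 genes compared were TRAVEDRAFT_51018 for LiP1, TRAVEDRAFT_52685 for LiP2, TRAVEDRAFT_50771 for LiP12, TRAVEDRAFT_145135 for LiP3 and TRAVEDRAFT_38129 for LiP10, at 0.02 to 0.05. The median over those genes was 0.69 to 0.82.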

How the data were processed

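Total RNA of 12 mycelial cultures was sequenced. Per the file headers, the authors deposited, for each gene model, a count of all reads, a count of uniquely aligned reads and RPKM. Dividing counts of all reads by a constant length for the gene and by the column total returned the deposited RPKM within a relative 1.7e-07. Aligner, counter, build and strand use are not given in the sources used here. Symbols came from the RefSeq gene table (assembly of strain FP-101664 SS1), matched by the number in the locus tag (14250 of 14296 models, 42 with a symbol). It names no scaffold and was used only for names and neighbours. No sequence was used here.

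Counts of all reads were fitted in edgeR 4.0.16 (R 4.3.3) over all 12 libraries with 1 mean per group: filterByExpr left 12648 genes, TMM scaling, quasi-likelihood tests with 8 residual degrees of freedom, and Benjamini-Hochberg adjustment over all tested genes, called under 0.05. Standard errors were derived from each log2 fold change and its F value, and 95% intervals from them. For the 5 genes, main-fit tests and intervals used 16.4 degrees of freedom in total. That total adds to the residual ones those that edgeR gains by sharing variance across genes. Fits were tried on simulated data for the age change in BRFM1218 and the interaction only. Those data held no general strain difference, so they cannot show how the strain comparisons or the scalings behave. Counting error is that of reads, which are not independent molecules. Genes named beyond the 5 followed a fixed rule: LiP genes, the 2 closest genes with a symbol and the closest of all with a mean of at least 1 CPM (prior count 2). Neighbours were chosen by position after the data were seen, and not every gene near the 5 is named. The genes and lists were chosen with earlier results of these data known. Alternatives, 21 in all, were other scalings (RLE, upper quartile, library size only, and a loess trend with expression removed), DESeq2 1.42.0, no filter, unique reads, only the groups compared (not for the interaction), a replicate block and leaving out each library.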

Additional observations from a re-analysis of the deposited data

Results flagged for a closer look

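The age change differed between the strains by the interaction test in LiP1 (-0.94 on the log2 scale), LiP2 (-0.85), LiP3 (-0.85) and LiP10 (-0.84), each the change in 1956-1252 minus that in BRFM1218. In all 4 the estimate in BRFM1218 was the larger, and for LiP3 that estimate did not pass by itself (0.56, adjusted p = 0.0651 in edgeR). In BRFM1218 the CV of CPM at 4 weeks was 16.5% for LiP1, 36.8% for LiP2, 21.4% for LiP3 and 24.3% for LiP10, and at 2 weeks it was 4.58%, 21.2%, 31.1% and 9.97%. The part of that spread in the interaction was not tested, and the interaction of LiP10 was -1.02 to -0.69 over its 20 alternatives. Single outlying libraries within groups of 3 were not tested.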

How the results depend on the processing

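Of 520 values recomputed for single genes, 467 kept their direction and side of the threshold. With the sign kept, 28 lost a call and 17 gained one. A further 8 changed sign, some of which also lost or gained a call. In the age change in BRFM1218, 4 genes were called, and 4 to 5 with 1 library left out. In the other comparisons, leaving out 1 library gave 0 calls for age in 1956-1252, 3 to 5 for the strains at 2 weeks (4 with all libraries), 1 to 3 at 4 weeks (2) and 2 to 5 for the interaction (4). With the expression trend removed, the strain comparisons gave 1 call at 2 weeks and 4 at 4 weeks; estimates changed sign for LiP2 (-0.15), LiP10 (-0.022) and LiP12 (-0.16) at 2 weeks, and for LiP3 (-0.43) and LiP12 (-0.70) at 4 weeks. With library size only, LiP2 (0.068) and LiP10 (0.25) changed sign at 4 weeks. So did LiP12 without the third BRFM1218 library at 4 weeks (-0.022, against 0.063 to 0.31 without any other single library). The cause was not tested. With only the groups compared there were 2 calls for age in 1956-1252 and 1 for the strains at 4 weeks.

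The replicate numbers gave no sign of pairing the libraries: deviations of same-numbered libraries correlated at -0.21 to 0.05, and not every library correlated best with its own number. In 1956-1252, library 3 at 2 weeks and library 1 at 4 weeks correlated at 0.21. Such correlations cannot show whether cultures were handled together. With the replicate block, LiP3 passed for age in BRFM1218 (0.57, adjusted p = 0.0419 in edgeR) and LiP2 did not for the strains at 4 weeks (-0.47, adjusted p = 0.066), which left 1 call there. It changed no other call for the 5 genes. Depth was lowest for LiP3 and LiP12, with 35 to 80 reads per library in BRFM1218 at 2 weeks. There the observed CV of CPM was 31.1% for LiP3 and 23.8% for LiP12, against 13.7% and 15.2% from counting.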
